A study of Mus musculus with 6 samples.

Results

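The comparison set 2 arrays of a mouse endothelial line labelled N against the 4 arrays of lines labelled VE and VE+N, 6 of the 6 arrays of the series. Its value for a gene is the mean of the VE and VE+N line means minus the N line mean, on the log2 scale of the deposited signal, so that 1 unit is a 2-fold difference. The question is which genes separate both VE-cadherin-labelled lines from the N-labelled line to a like extent, the pattern that would follow VE-cadherin whether or not N-cadherin is also present. Within it, 250 of 19936 measured genes met a size rule for such a shared step: called in the averaged comparison, over 2-fold from N the same way in each line, and VE+N minus VE at most 0.5 log2 units in size. They are named shared genes below.

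All 3 lines were endothelial cells derived from murine embryonic stem cells, labelled as expressing N-cadherin (N), VE-cadherin (VE) or both (VE+N). Per the labels, 50000 cells per square centimetre were plated in medium with 20% serum, grown for 72 h so that they had long been confluent, and then starved for 18 to 20 h with 1% albumin. Each line gave 2 RNA extractions, each on a whole-transcript Mouse Gene 1.0 ST array, and 150 ng of RNA was amplified per array. There is 1 line per cadherin state, and the labels do not give how the cadherin state was made or whether a line is 1 clone, so a difference of cadherin and any other difference between these lines cannot be told apart. The titles call the extracts biological replicates, but no source used here says that they came from separate cultures, so the p-values measure the spread between extracts, which may be technical.

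VE-cadherin is the classical cadherin of endothelial adherens junctions. It binds itself between neighbouring cells and is tied through catenins to actin, and its engagement is known to restrain growth factor signalling, to favour claudin-5 expression and to accompany vessel stability. N-cadherin is also made by endothelial cells, lies more diffusely on their surface, and is known for contacts with mural cells.

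The arrays were alike in overall signal, with a median probe set between 4.85 and 4.91. Across genes, the pair of arrays of each line differed with an SD of 0.185 to 0.244, and arrays of different lines with 0.399 to 0.559. The number of arrays, not a read depth, limits the precision. As endothelial cells, all lines had high signal for Pecam1, a junction adhesion receptor: 11.64 and 11.64 on the N arrays, 11.25 and 11.31 on VE and 11.41 and 11.56 on VE+N. Of 44 endothelial identity genes measured, 3 lay below the median gene in every line: Sox17, Mmrn1 and Thbd.

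The cadherin genes themselves followed the labels only in part. The N-cadherin gene Cdh2 gave 7.66 and 7.67 on the N arrays, 5.80 and 5.93 on VE and 6.69 and 6.70 on VE+N. It was lower in the VE-cadherin-labelled lines by a log2 difference of −1.39 ± 0.0859 (SE) (limma adjusted p = 2.07e-05), and the VE+N arrays lay between the others, 0.83 above VE (limma adjusted p = 0.00155). The VE-cadherin gene Cdh5 gave 7.26 and 7.30 on the N arrays, 7.05 and 6.83 on VE and 7.05 and 7.16 on VE+N. The N arrays were the highest, and the averaged difference of −0.25 (95% interval −0.48 to −0.03) did not pass (limma adjusted p = 0.119). Of the alternatives run, it passed only with the dimmest 50% of genes left out (limma adjusted p = 0.0428). No rise of Cdh5 was thus seen in the lines labelled as expressing it. The positions of its probes are not known here, and every direction below rests on the labels. Catenins moved little: beta-catenin (Ctnnb1) fell by 0.33 (limma adjusted p = 0.0266) and plakoglobin (Jup) by 0.50 (adjusted p = 0.0095). Without N replicate 1 or N replicate 2, limma adjusted p became 0.147 or 0.202 for Ctnnb1 and 0.0923 or 0.0549 for Jup, and Ctnnb1 also lost its call without VE replicate 1 or VE replicate 2 (0.0623 or 0.0776). By contrast p120-catenin (Ctnnd1), at 0.12, did not pass (adjusted p = 0.536).

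In limma with Benjamini-Hochberg adjustment, 19.1% of the 19936 genes (3810) were called at 0.05, of which 2040 (10.2%) had more signal in the VE-cadherin-labelled lines and 1770 (8.88%) less. Leaving out N replicate 1 gave 2048 calls, and leaving out N replicate 2 gave 2012. Of the 3810, 1183 were also called in VE+N minus VE, the direct test of a difference between the lines. Of the same 3810, 1889 passed against N in both lines the same way, 627 only in VE and 1126 only in VE+N. Among all genes, 3079 (15.4%) passed in VE minus N and 3802 (19.1%) in VE+N minus N. The lines share the N arrays, so these tests are not independent. Over 2-fold, 678 genes (3.4%) were called, 392 higher (1.97%) and 286 lower (1.43%). Both lines were over 2-fold from N the same way in 427 genes (2.14%), 224 up (1.12%) and 203 down (1.02%), and 250 of these (1.25% of all genes) kept within the 0.5 limit, 116 higher (0.582%) and 134 lower (0.672%). Centring each array on its median gene turned the share of higher genes from 53.5% to 40.9% of the calls and the shared genes to 94 higher and 168 lower. Without the dimmest 50% of genes, 106 higher and 76 lower shared genes were left. VE+N minus VE called 2020 genes (10.1%). The N arrays do not enter that difference, but they add to the error estimate behind its p-values. The number of calls changed when single arrays were left out. At the limit, Cpne2 (VE+N minus VE 0.50) lay just inside and the potassium channel gene Kcna5 (0.51) just outside among higher genes. Among lower genes Gpnmb (−0.49) lay just inside and the desaturase gene Scd1 (−0.5001) just outside.

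**Figure D1:**
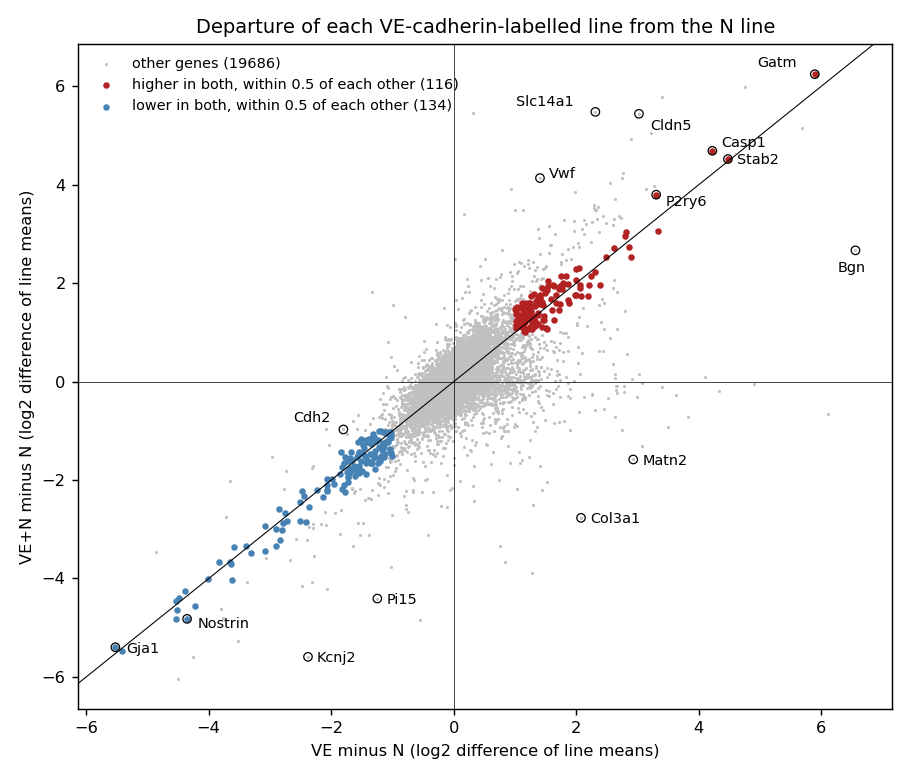
Each point is 1 of 19936 genes, with VE minus N on the horizontal axis and VE+N minus N on the vertical axis, both log2 differences of line means. The N arrays enter both axes, so part of the spread along the diagonal is shared. The 116 higher (red) and 134 lower (blue) shared genes lie along the line of equal departure, while Bgn, Vwf, Kcnj2 and Col3a1 lie far from it.

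The 116 shared rises had a median averaged difference of 1.501 and ran from 1.05 to 6.07, with 19 over 2 log2 units and 5 over 3. The 134 shared falls had a median of −1.64 and reached −5.46, with 42 over 2 units in size, 21 over 3 and 10 over 4. On every one of these genes the N arrays and the arrays of the VE-cadherin-labelled lines did not overlap, as the rule all but requires. Within the 0.5 limit, VE+N lay above VE in 77 rises and 51 falls and below it in 39 and 83. VE+N minus VE was itself called in 8 rises and 6 falls, against 10.1% of all genes, a share that the limit keeps low. Its 95% interval lay within 1.5-fold either way in 72 rises and 102 falls, and for the others the interval allows a larger difference between the lines.

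The largest shared rise was in Gatm, the mitochondrial enzyme that makes the creatine precursor guanidinoacetate. Its signal was 2.46 and 2.86 on the N arrays, 8.64 and 8.47 on VE and 8.86 and 8.95 on VE+N. No array of a VE-cadherin-labelled line came near the N arrays, and the averaged difference was 6.07 ± 0.126 (SE) (limma adjusted p = 1.09e-07). Next was Stab2, a scavenger receptor for hyaluronan typical of sinusoidal endothelium, with 4.73 and 4.76 on the N arrays, 9.22 and 9.22 on VE and 9.13 and 9.40 on VE+N. The 4 VE-cadherin-labelled arrays lay close together, and VE+N minus VE was 0.05 (95% interval −0.22 to 0.31). Casp1, the protease that matures interleukin-1 beta in inflammasomes, gave 3.69 and 3.48 on the N arrays, 7.82 and 7.78 on VE and 8.08 and 8.46 on VE+N. It too separated fully from N, by 4.45 ± 0.125 (SE), though its VE+N arrays were the higher of the pair of lines.

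P2ry6, a receptor for extracellular UDP, rose by 3.55 ± 0.159 (SE), from 4.88 and 4.73 on the N arrays to 8.41, 7.81, 8.61 and 8.60 on the VE-cadherin-labelled ones. Hpgds, the synthase of prostaglandin D2, rose by 3.20 ± 0.211 (SE), with arrays that varied more (7.003, 6.73, 6.22 and 6.96). The other shared rises among the 12 largest were in the neuronal pentraxin Nptx1 (2.92), the guidance ligand Sema3d (2.87), the mitochondrial aspartate-glutamate carrier Slc25a13 (2.80), brain-type creatine kinase Ckb (2.72), the fibrillar collagen chain Col5a2 (2.66), the actin cross-linker filamin C (Flnc, 2.51) and the transcription factor Nfix (2.26). Nfix was also among the most even: its VE-cadherin-labelled arrays read 10.01, 10.01, 9.95 and 9.92 against 7.67 and 7.74 on the N arrays, and VE+N minus VE was −0.08 (95% interval −0.30 to 0.14). The 12 rises had limma adjusted p-values between 1.09e-07 and 2.98e-05.

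The largest shared fall was in Gja1, the gap junction protein connexin 43. Its signal was 9.14 and 9.27 on the N arrays, 3.57 and 3.79 on VE and 4.00 and 3.61 on VE+N. Both VE-cadherin-labelled lines lay near the level under which 25% of their genes lay, 3.80, and the averaged difference was −5.46 ± 0.129 (SE) (limma adjusted p = 1.68e-07). Pmepa1, a membrane protein that restrains Smad signalling, gave 10.23 and 10.19 on the N arrays, 4.64 and 4.95 on VE and 4.92 and 4.56 on VE+N. Its arrays also left no overlap, at a difference of −5.44 ± 0.133 (SE) with VE+N minus VE of −0.06 (95% interval −0.41 to 0.30). Nostrin, which binds and traffics endothelial nitric oxide synthase, gave 8.60 and 8.57 on the N arrays, 4.08 and 4.38 on VE and 3.68 and 3.85 on VE+N. The VE+N arrays were the lowest there, with a step of −4.59 ± 0.11 (SE) and VE+N minus VE of −0.47 (95% interval −0.76 to −0.17).

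Lcp1, the actin bundler L-plastin of leukocytes, fell by 4.39 from 9.76 and 9.69 on the N arrays to 5.51, 5.50, 5.08 and 5.27 on the others. The imprinted gene Mest gave 8.07 and 8.22 on the N arrays and 3.80, 3.72, 3.88 and 3.91 on the others, a difference of −4.32 with VE+N minus VE of 0.14 (95% interval −0.10 to 0.37). The remaining falls among the 12 largest were in the tetraspanin Tspan13 (−4.68), the TFIID subunit paralog Taf9b (−4.58), the lactonase Pon3 (−4.49), the copine Cpne8 (−4.44), the serpin Serpinb11 (−4.01), the cyclic nucleotide phosphodiesterase Pde3b (−3.83) and the RNA-binding protein Khdrbs3 (−3.75). Serpinb11 was the most even of the 12, with VE+N minus VE of −0.0040 (95% interval −0.26 to 0.25). Limma adjusted p-values of the 12 falls lay between 1.09e-07 and 1.41e-06.

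**Figure D2:**
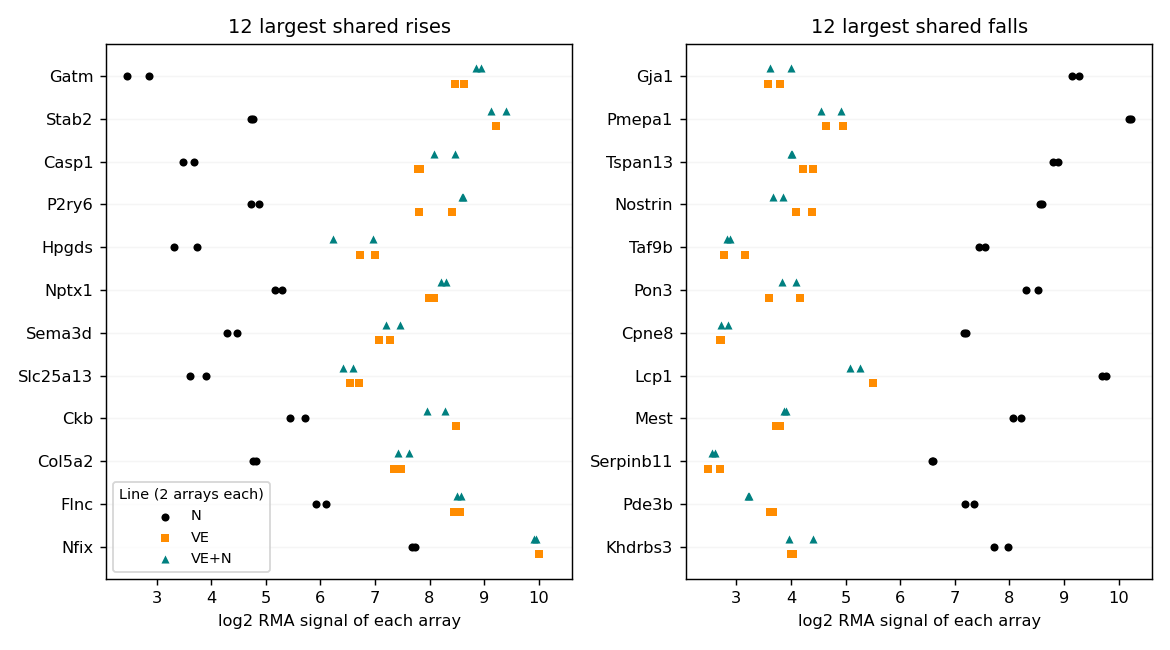
Log2 signal on each array (horizontal axis) of the 12 largest shared rises (left) and falls (right), with circles for N, squares for VE and triangles for VE+N, 2 arrays per line. In every gene the squares and triangles lie on the same side of the circles with no overlap. The rule that picked the genes sets the side and all but requires the gap. The genes run from Gatm, at 2.46 and 2.86 on N, to Khdrbs3, at 7.98 and 7.72 on N.

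Of the shared genes, 91 of 116 higher and 105 of 134 lower had a promoter window in RefSeq (GRCm38.p6, from 250 bases before to 50 after the gene start), as had 15564 measured genes. Motifs were searched on both strands as exact letters, and no motif contains another. The AP-1 letters TGACTCA were held by 13 of 105 lower genes (12.4%), 3 of 91 higher genes (3.3%) and 4.52% of all windows. The E-box letters CACGTG were held by 14.3% of higher, 8.57% of lower and 8.4% of all windows. The ETS letters CGGAAGT were held by 3.3% and 3.81% against 9.14%, and the TEAD letters GGAATG by 9.89% and 15.2% against 13.1%. The forkhead letters GTAAACA were held by 2.2% and 1.9% against 3.03%, the TCF/LEF letters ATCAAAG by 2.2% and 2.86% against 3.19%, and the Smad letters CAGACA by 16.5% and 16.2% against 18%. A match is a description of the window and not a site shown to be used. By base composition, 25.3% of higher and 38.1% of lower windows had a CpG observed-to-expected ratio under 0.5, against 40.7% of all.

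The promoters shown are those of the largest shared rise (Gatm) and fall (Gja1), of a further large rise that holds an E-box (Casp1), and of 2 genes of ATP sensing and proteolysis that fell and, like Gja1, hold the AP-1 letters (P2rx7 and Plaur). Each is 300 bases, 5′ to 3′ on the gene's strand, and capitals mark a match to any of the 7 motifs. The window of Gatm lies at chr2:122611228-122611527 (minus strand) and holds no match, Casp1 is at chr9:5298267-5298566 (plus strand), Gja1 at chr10:56377050-56377349 (plus strand), P2rx7 at chr5:122643677-122643976 (plus strand) and Plaur at chr7:24462233-24462532 (plus strand).
Gatm: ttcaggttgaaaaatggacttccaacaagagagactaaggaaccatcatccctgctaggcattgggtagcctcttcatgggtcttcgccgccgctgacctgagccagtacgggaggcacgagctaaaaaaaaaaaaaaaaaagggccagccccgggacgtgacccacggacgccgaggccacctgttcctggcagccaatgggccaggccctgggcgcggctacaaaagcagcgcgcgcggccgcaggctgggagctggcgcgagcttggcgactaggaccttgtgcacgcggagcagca
Casp1: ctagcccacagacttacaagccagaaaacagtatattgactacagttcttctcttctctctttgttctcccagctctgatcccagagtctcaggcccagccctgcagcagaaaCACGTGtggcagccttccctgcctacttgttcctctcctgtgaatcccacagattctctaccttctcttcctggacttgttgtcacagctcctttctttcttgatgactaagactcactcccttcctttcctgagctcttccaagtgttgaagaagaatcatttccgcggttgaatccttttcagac
Gja1: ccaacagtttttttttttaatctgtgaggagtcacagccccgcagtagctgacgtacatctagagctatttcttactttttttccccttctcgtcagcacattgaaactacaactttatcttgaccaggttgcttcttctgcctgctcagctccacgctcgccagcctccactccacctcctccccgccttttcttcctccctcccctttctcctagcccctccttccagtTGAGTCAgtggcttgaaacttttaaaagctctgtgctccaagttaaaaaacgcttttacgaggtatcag
P2rx7: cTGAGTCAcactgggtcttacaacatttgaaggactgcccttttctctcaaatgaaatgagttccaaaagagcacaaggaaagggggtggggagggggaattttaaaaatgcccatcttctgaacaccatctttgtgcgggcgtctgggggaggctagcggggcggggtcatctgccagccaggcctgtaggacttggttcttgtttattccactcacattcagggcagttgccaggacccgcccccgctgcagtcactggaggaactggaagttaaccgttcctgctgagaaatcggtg
Plaur: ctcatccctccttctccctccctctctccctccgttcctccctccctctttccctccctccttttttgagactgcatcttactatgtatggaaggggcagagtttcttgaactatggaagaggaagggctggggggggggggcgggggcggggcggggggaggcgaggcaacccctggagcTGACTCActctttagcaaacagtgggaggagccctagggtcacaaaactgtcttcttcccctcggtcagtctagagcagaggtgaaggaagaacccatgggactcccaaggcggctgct
The AP-1 letters stand just before the gene start in Gja1, further upstream in Plaur and at the far 5′ end of the window in P2rx7. They read as TGAGTCA in Gja1 and P2rx7, where the match is on the other strand. The other lower genes with the AP-1 letters were Pir, Tspan15, Olr1, Itga9, P2ry10b, Gpnmb, Sema4c, Upp1, Cldn15 and Chrna1.

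The shared genes differed in where they lay on the signal scale. Among the 134 lower genes, both VE-cadherin-labelled lines were below their median gene (5.58 in VE and 5.49 in VE+N) in 71, above it in 59, and among the 25% of genes with the least signal in 20. Among the 116 higher genes, both were above it in 111, and N was below its own median gene of 5.48 in 52. Signal over background is not given in the values, and the part of low signal in the evenness of the lower genes was not tested. Bright genes with an even step were the endothelin receptor Ednrb, with 12.04 and 12.07 on the N arrays, 10.65 and 10.55 on VE and 10.48 and 10.62 on VE+N, and the Ets-family factor Elk3, with 9.84 and 9.83 on the N arrays, 11.24 and 11.21 on VE and 11.47 and 11.46 on VE+N. Ednrb fell by 1.48 and Elk3 rose by 1.51, each far above the median gene in every line. Elk3 was chosen after its values were seen.

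**Figure D3:**
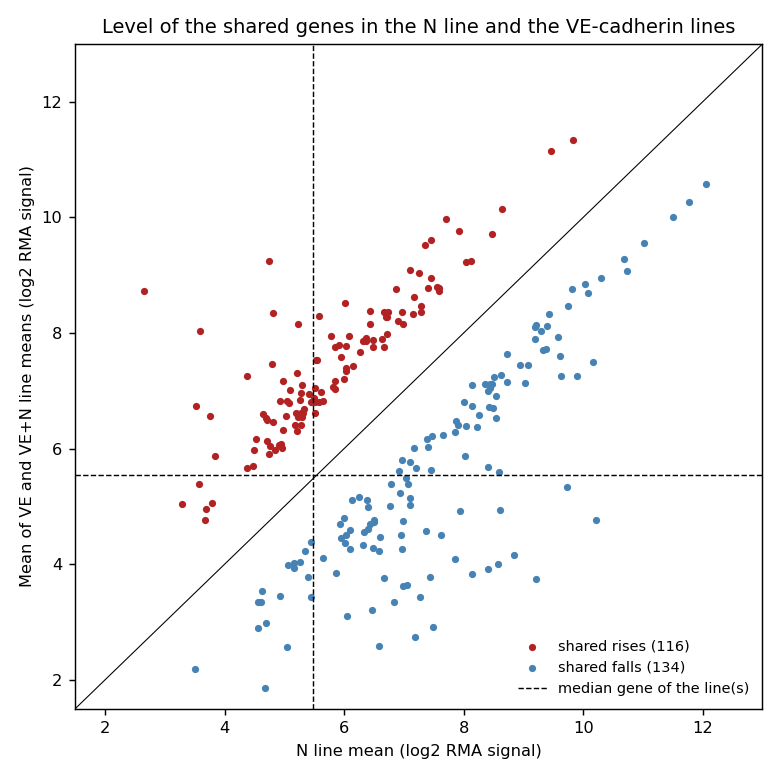
Mean log2 signal in the N line (horizontal) against the mean of the VE and VE+N line means (vertical) for the 116 shared rises (red) and 134 shared falls (blue), with the median gene as dashed lines and equality as a solid line. For 71 of the falls both VE-cadherin-labelled lines are under their median gene, and 111 of the rises are above it in both.

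The list counts below stand beside 10.2% of all genes called higher and 8.88% called lower. Of the 31 pathway lists, 21 passed both shares. Among genes of cell contacts, 2 connexins were shared falls. Of 10 measured gap junction genes 2 were called higher and 3 lower, the shared ones being Gja1 as above and the arterial connexin 40 gene Gja5, at 4.79 and 5.33 on the N arrays and 4.00, 3.96, 3.95 and 4.06 on the others, a fall of 1.07 (limma adjusted p = 0.00149). That call of Gja5 was lost with the methods' analysis of variance after Benjamini-Hochberg adjustment (adjusted p = 0.0843) and with limma's treat against 1.5-fold (0.142). The other calls of the list were small and were lost when arrays were left out. Connexin 37 (Gja4), at −0.50, lost its call without N replicate 1, N replicate 2 or VE replicate 2 (limma adjusted p = 0.0714, 0.114 and 0.0561). Connexin 45 (Gjc1), at 0.43, lost its call without N replicate 2, either VE array or VE+N replicate 2 (adjusted p up to 0.313), with a replicate block (limma adjusted p = 0.0529) and under median centring (0.0733), and pannexin 1 (Panx1), at 0.40, without any of the N or VE arrays (adjusted p up to 0.222). The list held 2 to 3 calls without an N or VE array. Of 33 genes of adherens junctions 7 were called higher and 8 lower, with 1 shared gene, protocadherin 1 (Pcdh1), which fell by 1.203. The receptor phosphatases Ptprj and Ptprb, the latter a partner of VE-cadherin, rose by 2.27 and 1.72, more in VE+N than in VE. Of 31 tight junction genes 6 rose and 3 fell. Cldn15 was the shared member, with a fall of 1.09, a call lost with the analysis of variance after adjustment (adjusted p = 0.0699) and with limma's treat (0.089). Cldn5 rose unequally and is given below. Dachsous 1 (Dchs1), a large atypical cadherin and a shared gene named after its values were seen, fell by 1.66.

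In the VEGF and tip cell list more genes fell than rose. Of its 36 genes 6 were called higher and 17 lower. Calls made up 63.9% of the list, against 19.1% of all genes. The list median was −0.25, against −0.01 for all genes. The shared members were all lower. Placental growth factor (Pgf), a ligand of the VEGF receptor Flt1, gave 7.66 and 8.22 on the N arrays, 5.20 and 4.99 on VE and 4.77 and 4.70 on VE+N, a fall of 3.03. The chemokine receptor Cxcr4, a tip cell gene, gave 7.13 and 7.07 on the N arrays, 5.06 and 5.01 on VE and 5.18 and 4.83 on VE+N, a fall of 2.08 with VE+N minus VE of −0.03 (95% interval −0.34 to 0.27). Both genes left a clear gap between N and the other arrays. The Tie2 ligand Angpt2, which loosens vessel walls, fell by 1.65, and the urokinase receptor Plaur by 1.42. Robo1, Kcne3 and Dll4 also fell (−4.92, −2.53 and −2.17), further in VE+N than in VE.

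Notch and arterial genes gave 8 higher and 12 lower of 31 (median −0.17), or 13 calls in all without N replicate 2. Hey2, a Notch target that marks arterial endothelium, was a shared fall of 1.27, and Gja5 and Cxcr4 were shared falls too. Hey2 lay below the median gene in every line. It gave 4.56 and 4.68 on the N arrays, 3.39 and 3.50 on VE and 3.20 and 3.29 on VE+N. The Notch modifier Mfng, the feedback target Nrarp and the target Hey1 fell by 2.89, 1.87 and 1.65, each lower in VE+N than in VE. Among venous, sinusoidal and lymphatic genes 5 of 22 rose and 4 fell. Stab2 was the shared member, and the apelin receptor Aplnr rose by 5.42 with a remaining VE+N minus VE of −0.53, just over the limit. Of 44 endothelial identity genes 12 rose and 8 fell, with the adhesion receptor Adgrf5 as the shared rise: 7.50 and 7.41 on the N arrays, 8.85 and 8.88 on VE and 8.98 and 9.10 on VE+N, a difference of 1.496 ± 0.0871 (SE). The Tie receptors Tek and Tie1, at 0.03 and −0.02, did not pass (limma adjusted p = 0.873 and 0.911).

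Genes that handle extracellular nucleotides split by direction. Of 17 measured 5 rose and 5 fell, with 6 calls in all without N replicate 1. The ATP-gated channel P2rx7 gave 6.92 and 6.99 on the N arrays, 4.65 and 4.54 on VE and 4.58 and 4.23 on VE+N and was a shared fall of 2.45, opposite to the shared rise of P2ry6. The ATP-degrading ectoenzyme Entpd1 fell by 4.16, less far in VE+N, and the receptor P2ry2 rose by 2.68. Ecto-5′-nucleotidase (Nt5e) fell by 0.77, evenly but under 2-fold. Of 27 genes of nitric oxide and vasoactive signalling 7 rose and 6 fell, with Nostrin and Ednrb as shared falls. Nos3, the endothelial nitric oxide synthase, gave 10.53 and 10.51 on the N arrays, 9.63 and 9.50 on VE and 9.75 and 9.67 on VE+N, a fall of 0.88 with VE+N minus VE of 0.14 (95% interval −0.09 to 0.37). It is named although it fell less than 2-fold.

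Cyclic nucleotide phosphodiesterases, a family looked at after the values were seen, gave 1 higher and 9 lower of 22 measured. Of all genes, 10.2% were called higher and 8.88% lower. Shared falls were 4 of the family: Pde3b, Pde7b (−2.91), Pde4b (−1.42) and Pde8b (−1.12). The 4 enzymes degrade cAMP, and Pde3b also cGMP. Serotonin receptors were chosen likewise. Of 14 genes 2 were called, a smaller share than the 19.1% of all genes called. Both were shared falls, with Htr1b at −1.95. Htr2b gave 7.56 and 7.32 on the N arrays, 3.97 and 3.61 on VE and 3.63 and 3.92 on VE+N. Htr2b was far above the median gene in N and below it on each of the other arrays.

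Interstitial matrix genes rose unevenly. Of 31 interstitial collagens and small proteoglycans 11 were called higher and 0 lower, with a median of 0.21. The list's mean log2 signal was 5.06 and 5.04 on the N arrays, 6.33 and 6.41 on VE and 5.09 and 5.03 on VE+N. Its median VE+N minus VE was −0.70, so the rise of the list mean lay in the VE line. Col5a2 was the only shared gene: 4.77 and 4.83 on the N arrays, 7.47 and 7.35 on VE and 7.42 and 7.62 on VE+N. Elsewhere the average hid the lines, as for the collagen-binding protein Dpt, which averaged 2.72 with 3.74 and 3.45 on the N arrays, 9.63 and 9.78 on VE and 2.94 and 2.90 on VE+N. The VE arrays alone carried that value. By contrast, the basement membrane list gave 2 higher and 8 lower of 25, with the collagen IV chain Col4a5 as a shared fall of 1.72 and the integrin ligand nephronectin (Npnt) at −2.30. Among 24 integrin subunits 5 rose and 6 fell, with 7 calls in all without N replicate 2. The collagen receptor subunit Itga2 gave 8.43 and 8.39 on the N arrays, 5.54 and 5.58 on VE and 5.80 and 5.84 on VE+N, a shared fall of 2.72, and Itga9 fell by 1.65, while Itga3 fell by 1.77, further in VE+N. The metalloprotease Adam12 was a shared rise of 1.91 among 29 matrix proteases and inhibitors, of which 7 rose and 7 fell.

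Several secreted growth regulators fell in both lines. Igf2, an imprinted growth factor, gave 9.60 and 9.61 on the N arrays, 7.92 and 7.74 on VE and 7.45 and 7.27 on VE+N and fell by 2.01. Of 20 genes of the insulin-like growth factor system 3 rose and 7 fell, and Igfbp5 fell the most, by 5.27, though further in VE+N. Among 20 imprinted genes 2 rose and 5 fell: Mest and Igf2 were shared falls, and Plagl1, a zinc finger regulator of imprinted genes, was a shared rise of 1.84, from 4.69 and 4.70 on N to 6.31, 6.54, 6.69 and 6.57 on the others. The activin subunit Inhbb, named after its values were seen, fell by 2.67. Of 33 TGF-beta and BMP genes 9 rose and 4 fell. The Smad targets in it did not move as 1 group: Pmepa1 and Id3 fell, by 5.44 and 1.14, and the decoy receptor Bambi rose by 0.76.

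Of 32 FGF and ERK feedback genes 3 rose and 9 fell. The ERK phosphatase Dusp5 was a shared fall, with 7.58 and 7.38 on the N arrays, 6.297 and 6.63 on VE and 6.31 and 5.64 on VE+N. Its VE+N arrays were far apart, and the fall of 1.26 had limma adjusted p = 0.00241. The call of Dusp5 was lost with the analysis of variance after adjustment (0.110) and with treat (0.102). Etv1, Dusp4 and Spry4 also fell, by 1.87, 1.48 and 1.44, further in VE+N. Of 31 Wnt and beta-catenin genes 7 rose and 2 fell, with the TCF-family repressor Tcf7l1 as a shared rise of 1.18. Of 23 YAP and TAZ targets 6 rose and 3 fell (5 calls in all without N replicate 2), with the stress gene Gadd45b as a shared rise of 1.89. Of 27 FoxO targets 7 rose and 7 fell. The pro-apoptotic Bcl2l11 (Bim) gave 9.31 and 9.35 on the N arrays, 7.67 and 7.66 on VE and 7.68 and 7.78 on VE+N, a shared fall of 1.63 with VE+N minus VE of 0.06 (95% interval −0.16 to 0.29), with the 4 VE-cadherin-labelled arrays close together. Angpt2 was the other shared fall of that list, while Sesn1 rose by 1.39 and Sesn3 fell by 1.32.

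Axon guidance genes gave 11 higher and 16 lower of 51. Sema3d, a secreted repellent of endothelial cells, gave 4.47 and 4.29 on the N arrays, 7.07 and 7.27 on VE and 7.21 and 7.45 on VE+N, and the membrane semaphorin Sema4c was a shared fall of 1.45. The tetraspanins, membrane organisers, gave 7 higher and 5 lower of 24, with Tspan13 and Tspan15 as shared falls (−4.68 and −1.79). Among 30 potassium channel genes 2 rose and 6 fell, and the sulfonylurea receptor subunit Abcc9 was a shared fall of 1.99. Of 22 haemostasis genes 5 rose and 6 fell, with Plaur as the shared member, and the list had 7 calls in all without N replicate 1 and 7 without N replicate 2.

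In metabolism, creatine handling joined 2 of the shared rises, Gatm and Ckb. Of 19 genes of creatine, arginine and urea handling 6 rose and 1 fell, the creatine transporter gene Slc6a8 not among them (0.21, limma adjusted p = 0.188). Of 21 fatty acid genes 3 rose and 6 fell. The lipoprotein receptor Vldlr was a shared rise of 1.94, the binding proteins Fabp4 and Fabp5 rose by 4.85 and 2.05, and Cd36, the fatty acid translocase, fell by 2.33. Cholesterol synthesis gave 1 higher and 9 lower of 19 (median −0.36) and no shared gene, and the calls dropped to 3 without either N array and to 6 without VE+N replicate 2. Dhcr7, which makes cholesterol in the last step, fell by 1.03 and missed the set because VE lay less than 2-fold under N. Srebf1, a regulator of lipid synthesis genes and a shared gene chosen after its values were seen, gave 8.65 and 8.45 on the N arrays, 6.60 and 6.58 on VE and 6.49 and 6.44 on VE+N, a fall of 2.02. Of 28 hypoxia and glycolysis genes 8 rose and 3 fell, with Ankrd37 as the shared rise (1.34), and the list had 4, 5 or 6 calls without N replicate 1, N replicate 2 or VE replicate 1.

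Of the 31 pathway lists, inflammation and leukocyte adhesion had the largest share of rises: 17 of 30 rose and 3 fell (median 0.45), with 12 or 13 calls in all without N replicate 1 or N replicate 2. The list's mean log2 signal was 5.32 and 5.39 on the N arrays, 6.68 and 6.45 on VE and 5.70 and 5.78 on VE+N. Its median VE+N minus VE was −0.46, so the averaged rise lay more in the VE line. Casp1 was the shared gene. The nuclear cytokine Il33 rose by 3.17 and caspase 12 (Casp12) by 1.97, both unequally, and Il6 and Ccl2 fell by 1.88 and 1.65. The interferon response list, with 29 measured, gave 2 rises and 12 falls (median −0.32), or 9 calls in all without N replicate 2. Its shared genes had opposite signs: the sensor of double-stranded RNA Oas1a fell by 1.79 and the transcription factor Irf1 rose by 1.08, with 7.17 and 7.40 on the N arrays, 8.50 and 8.36 on VE and 8.32 and 8.29 on VE+N. The call of Oas1a was lost with the analysis of variance after adjustment (adjusted p = 0.0776). Oas1a has near-identical copies, so its probe set may read more than 1 gene. The DNA sensor Aim2, which can activate Casp1 and was chosen after its values were seen, gave 8.51 and 8.72 on the N arrays and 7.08, 7.11, 7.31 and 7.58 on the others, a shared fall of 1.35.

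Other shared genes, all chosen after their values were seen, belong to none of the lists. Among regulators of transcription, the SoxC factor Sox11 fell by 3.48, from 6.72 and 6.95 on the N arrays to 2.94, 3.54, 3.67 and 3.27 on the others, and the posterior Hox gene Hoxd10 by 2.13. Of 37 Hox genes measured 4 were called higher and 9 lower, against 10.2% and 8.88% of all genes, and Hoxd10 was the shared one. Among receptors, the chemokine receptor Cxcr3 fell by 3.01 and the oxysterol receptor Gpr183 by 2.71, while Csf2rb, the shared beta chain of the receptors for interleukin 3 and GM-CSF, rose by 1.99. Csf2rb gave 6.96 and 7.24 on the N arrays, 9.11 and 8.76 on VE and 9.15 and 9.33 on VE+N, with no overlap between N and the other arrays. Among cytoskeletal and signalling proteins, the actin-severing gelsolin (Gsn) rose by 1.84, the Rac exchange factor Tiam1 by 1.53, protein kinase D1 (Prkd1) by 1.96 and beta-arrestin 1 (Arrb1) by 1.68. Gsn gave 7.97 and 7.87 on the N arrays, 9.58 and 9.76 on VE and 9.89 and 9.83 on VE+N, so its step lay on bright signal in every line. Of secreted factors, the matricellular protein Ccn3 and the growth factor Pdgfc rose by 2.01 and 1.59.

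Cell cycle genes gave 18 higher and 0 lower of 41 (median 0.38) and no shared gene, with 11 or 9 calls without N replicate 1 or N replicate 2. Their mean log2 signal was 7.33 and 7.29 on the N arrays, 8.22 and 8.21 on VE and 7.31 and 7.11 on VE+N, and the median VE+N minus VE was −1.02. Mki67, the proliferation marker, gave 7.94 and 7.75 on the N arrays, 9.38 and 9.67 on VE and 7.998 and 7.97 on VE+N, so its average of 0.91 came from the VE arrays. Replication-dependent histones, viewed after the values were known, gave 20 higher and 0 lower of 27, against 10.2% and 8.88% of all genes. Of these histones 4 were shared: H1f2 (1.51), H4c9 (1.28), H3c15 (1.27) and H2bc8 (1.13). Many histone genes are near-identical, so which copy each probe set reads is uncertain.

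**Figure D4:**
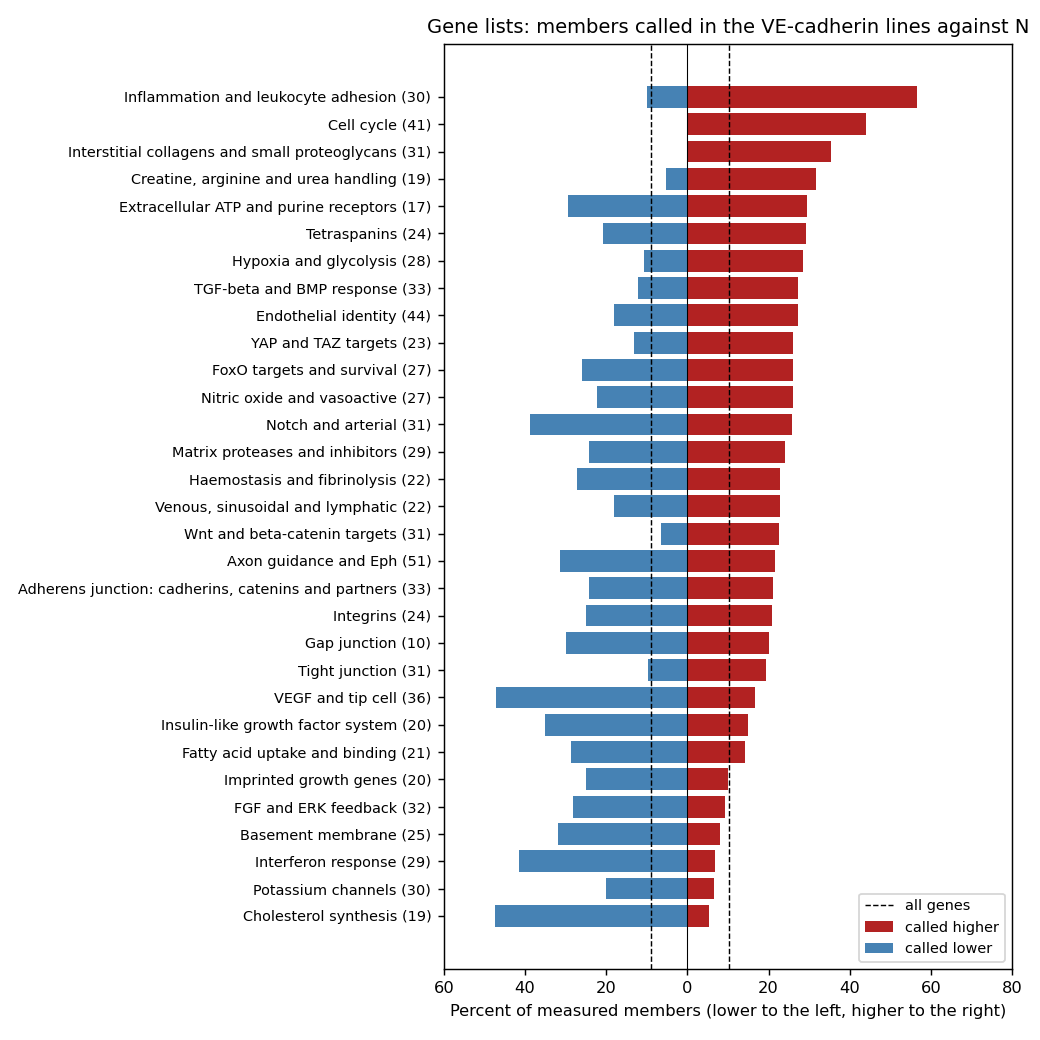
For each list (number of measured members in brackets), bars show the percent of members called higher (right, red) and lower (left, blue) in the VE-cadherin-labelled lines against N, with dashed lines at the shares of all genes, 10.2% and 8.88%. The inflammation list had 17 of 30 members higher, and the VEGF and tip cell list 17 of 36 lower. The bars of 21 of the 31 lists pass both dashed lines.

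Called shares were above those of all genes in both directions in 21 of the 31 lists, so a count over the background share is not particular to a list. The lists were chosen with results of these data known.

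Where both lines departed from N over 2-fold the same way but were not within 0.5 of each other (177 genes), VE+N was further from N in 148 and VE in 29. Cldn5, the main claudin of endothelial tight junctions, gave 6.14 and 6.34 on the N arrays, 9.26 and 9.26 on VE and 11.55 and 11.81 on VE+N. It rose in both lines, by 3.02 in VE and 5.44 in VE+N, and VE+N minus VE was 2.42 (95% interval 2.13 to 2.71). Von Willebrand factor (Vwf), stored by endothelial cells for platelet adhesion, rose by 1.41 and 4.13, and the urea transporter Slc14a1 by 2.31 and 5.48. The decoy receptor for interleukin 13, Il13ra2, rose by 3.39 and 5.79. Biglycan (Bgn) ran the other way, at 6.56 in VE and 2.67 in VE+N. The inward rectifier Kcnj2 and the protease inhibitor Pi15 fell further in VE+N, with VE+N minus VE of −3.21 and −3.16.

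Another 104 genes passed against N in opposite directions, 96 of them up in VE and down in VE+N. Col3a1, a fibrillar collagen, gave 8.28 and 8.39 on the N arrays, 10.29 and 10.53 on VE and 5.95 and 5.19 on VE+N. The matrix protein Matn2 differed from N by 2.93 in VE and −1.58 in VE+N, the protocadherin Pcdh18 by 1.52 and −2.04, and Col6a1 by 1.44 and −2.21. The average over both lines is uninformative for such genes.

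**Figure D5:**
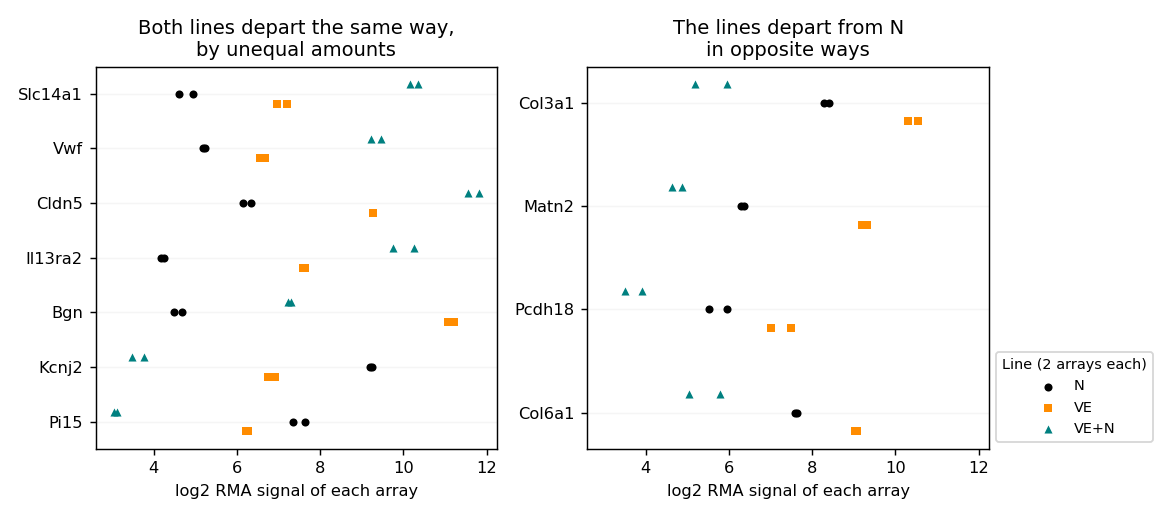
Log2 signal on each array (horizontal axis) for 7 genes in which both lines departed from N the same way by unequal amounts (left) and 4 in which they departed in opposite ways (right), with circles for N, squares for VE and triangles for VE+N. For Cldn5 the VE arrays read 9.26 and 9.26 and the VE+N arrays 11.55 and 11.81, and for Col3a1 the VE arrays lie above N and the VE+N arrays below.

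Markers of other cell types were read beside these groups. Of all genes, 19.1% were called, 10.2% higher and 8.88% lower. The mean log2 signal of 20 mesenchymal or fibroblast markers was 6.92 to 6.97 on the N arrays, 7.79 to 7.86 on VE and 6.01 to 6.17 on VE+N, so it did not step with VE-cadherin labelling. 6 of them were called higher and 4 lower, and S100a4 was the shared member, a rise of 1.88. For 19 mural cell markers the means were 5.51 on both N arrays, 5.23 to 5.29 on VE and 4.75 to 4.90 on VE+N, with 1 higher and 7 lower. Of these 13 lay below the median gene in every line, Rgs5, Cspg4, Myh11 and Cnn1 among them, and the rest of the list did not. Abcc9 belonged to that rest and was the shared member. For 18 haematopoietic markers the means were 4.69 to 4.72 on N, 4.48 to 4.52 on VE and 4.26 to 4.37 on VE+N, with 2 called higher, 2 lower and 15 below the median gene in every line. The pan-leukocyte gene Ptprc was among these 15, at 2.73 and 2.96 on the N arrays and 2.53, 2.55, 2.88 and 2.78 on the others, while Cd68 and Lilrb4a fell by 2.22 and 4.40, and the integrin subunit Itgb2 and the transcription factor Runx1 were called higher, by 0.52 and 0.68. The call of Itgb2 was lost when any array other than N replicate 1 was left out (limma adjusted p up to 0.258), and Runx1 differed from N by 1.21 in VE and 0.15 in VE+N. The part of these markers in the falls of Lcp1 and Abcc9 was not tested. Of pluripotent, epithelial, muscle and neural markers 6.67%, 7.14%, 25% and 16.7% were called, at most 4 a list, against 19.1% of all genes. In these lists 12 of 15, 11 of 14, 11 of 16 and 10 of 12 members lay below the median gene in every line. The muscle and neural calls depended on single arrays.

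By position, the shared genes were spread over the chromosomes. They made up 0.154% of genes on chromosome 16 (1 rise, 0 falls) and up to 2.34% on chromosome 18, against 1.25% of all genes. Most by count were on chromosome 7, with 9 rises and 13 falls, at 1.27% of its genes. On chromosome 10, 27.7% of its 938 genes were called higher, against 10.2% of all genes, with a median difference of 0.08 against −0.01. It held 9 shared rises, Stab2 among them, and 8 shared falls, Gja1 among them. Chromosomes 18 and 5 had more genes called lower, 19.8% and 16.3% against 8.88% of all genes. What lies behind these excesses was not tested. On the X chromosome, with 739 measured genes, 11 shared genes fell and 1 rose. Of all genes, 0.672% were shared falls and 0.582% shared rises. Among 250 shared genes 7 pairs were direct neighbours in the order of measured genes on GRCm38.p6, and both genes of all 7 pairs moved the same way. These included Mest with Cep41 (−2.02), Nmb (−3.67) with Wdr73 (−1.57), Pde4b with Sgip1 (−2.21), and the serpins Serpinb9 (−2.64) and Serpinb6b (−1.51). The pairs named fell, and other pairs rose. Neither the number of such pairs expected nor the share of neighbours moving alike over all genes was worked out.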

How the data were processed

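RNA of 3 mouse endothelial lines was measured on 6 arrays, 2 per line, grouped by the line in their titles. The authors deposited log2 values, made in Partek 6.3 by RMA per the submitters' processing notes, and their range shows the log scale. RMA subtracts background, equalizes probe distributions between arrays and gives 1 value per probe set. Arrays have no depth, and 2 per line limit the precision.

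Of 35556 probe sets, 21789 carried 1 symbol, 1621 several and 12146 none. Symbols were updated by Entrez identifier (21698) or accession (3), or kept as annotated (88), and the probe set with the highest mean was used for the 1001 genes with several, leaving 19936 genes. Line means over all 6 arrays were fitted with limma 3.58.1 in R 4.3.3 (residual degrees of freedom 3, prior 4.89). Benjamini-Hochberg adjustment ran over all genes, and calls were made below 0.05. Values after ± are SEs of a log2 difference. The fits were tested on simulated data.

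The comparison, its size rule and the 38 gene lists (1033 members, 974 measured; 31 of pathways, 7 of other cells) were chosen with earlier results of these data known. Named genes are Cdh5, Cdh2, the 12 largest shared rises and falls, those nearest the 0.5 limit, 8 unequal genes (1 of them not reported here), 4 opposite genes, and, per list, shared members and up to 5 called members of largest change. Predicted genes and clones were left out of ranked names. Promoter letters came from RefSeq windows on GRCm38.p6, the first listed per gene. Genes outside this rule were chosen after their values were seen: members of gene families, genes said to be so chosen, neighbours, promoter motif holders, marker examples, and the catenin genes, Pecam1, Nos3, Tek, Tie1, Slc6a8, Bambi, Casp12, Il6 and Ccl2. Alternatives were median centring, repeated quantile normalization, tests without the dimmest 25% or 50% of genes, other uses of several probe sets, a trended robust prior, a replicate block, treat at 1.5-fold, the methods' analysis of variance, other limits of the size rule and each array left out. Probe sets without a single symbol were not analysed here.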

Additional observations from a re-analysis of the deposited data

Results flagged for a closer look

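Of the 162 genes named, 49 passed limma's test of VE+N minus VE (adjusted p below 0.05). Their differences from N were thus not equal in the VE and VE+N lines. The N arrays do not enter that test's difference, but they add to its error estimate. VE+N was the lower of the pair in 37 and the higher in 12. The values below are VE+N minus VE in log2 units.

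Some were shared genes, so their step holds within the 0.5 limit although a smaller difference was measurable: Gpnmb (−0.49), Igf2 (−0.47), Prkd1 (−0.45), Itga9 (−0.44), Pde3b (−0.42), Sema4c (−0.41) and Cpne2 (0.50).

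Among other genes higher than N in both lines, the differences were Bgn (−3.89), Casp12 (−0.82), Fabp5 (−0.74), Fabp4 (−0.53), Ptprb (0.83), Ptprj (0.83), Sesn1 (0.97), P2ry2 (1.06), Il33 (1.08), Il13ra2 (2.40), Cldn5 (2.42), Vwf (2.73) and Slc14a1 (3.17). For Mki67 (−1.54) and Runx1 (−1.06), VE+N minus N was only 0.14 and 0.15, so their rise lay in VE.

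Among other genes lower than N in both lines, they were Kcnj2 (−3.21), Pi15 (−3.16), Lilrb4a (−1.75), Ccl2 (−1.73), Etv1 (−1.71), Cd36 (−1.59), Igfbp5 (−1.53), Dll4 (−1.38), Robo1 (−1.34), Cd68 (−1.31), Nrarp (−1.05), Spry4 (−0.90), Dusp4 (−0.87), Itga3 (−0.86), Hey1 (−0.82), Kcne3 (−0.73), Npnt (−0.72), Mfng (−0.61), Sesn3 (−0.60), Jup (−0.46), Cdh2 (0.83) and Entpd1 (1.41).

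The lines lay on opposite sides of N for Dpt (−6.78), Col3a1 (−4.84), Matn2 (−4.51), Col6a1 (−3.64) and Pcdh18 (−3.55). For these genes the averaged value does not describe either line.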

How the results depend on the processing

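The 3810 calls of the averaged comparison became 1837 with the methods' analysis of variance after Benjamini-Hochberg adjustment and 635 with treat, and 2012 to 4069 with 1 array left out. VE+N minus VE went from 2020 calls to 311, 3996 without adjustment, and 334 with treat, and to 966 to 2049 with 1 array left out. The 250 shared genes became 165 at a limit of 0.25, 1013 at a least difference of 0.5 and 52 at 2, since these change the rule itself; with 1 array left out there were 250 to 264. Of the original 250, 225 stayed under median centring and 182 without the dimmest 50% of genes, where fewer genes were tested. Genes over 2-fold numbered 674 to 719 with 1 array left out. Cdh5 was −0.25 in both cases but passed without the dimmest 50% of genes, and ranged from −0.31 to −0.20 with 1 array left out, and Cdh2 from −1.42 to −1.35. The cause of these changes was not tested.

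Of the genes named, 18 lost a call in at least 1 alternative. With the analysis of variance after adjustment 12 did: Cldn15, Dusp5, Gja4, Gja5, Gjc1, Il6, Itgb2, Jup, Matn2, Mki67, Oas1a and Panx1. With treat, which asks for more than a 1.5-fold change, 16 did: those 12 other than Il6 and Oas1a, with Bambi, Ctnnb1, Flt1, Nos3, Nt5e and Runx1. With 1 array left out, Ctnnb1, Gja4, Gjc1, Itgb2, Jup and Panx1 lost calls, Ctnnb1 and Panx1 also with quantile normalization again, and Gjc1 also under median centring and with a replicate block. The block also gave Cspg4 (−0.37) a call (limma adjusted p = 0.0488) and changed no other call named here. Gjc1 and Itgb2 also missed 0.05 in the analysis of variance without adjustment. No called gene named here reversed. Uncalled ones changed sign: Sox17 (−0.0191) and Tek (−0.0317) under median centring and Tie1 (0.0714) with quantile normalization again. With 1 array left out, Cnn1 ranged from −0.2952 to 0.0161, Rgs5 from −0.1467 to 0.0565, Thbd from −0.2326 to 0.0210, Sox17 from −0.0020 to 0.0922, Tek from −0.0324 to 0.0975 and Tie1 from −0.0394 to 0.0006. Of 646 counts of list members, 545 stayed within 1.5 times and 101 did not.

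Replicate numbers did not pair the samples: the correlation of same-numbered deviations was −0.00504 for N with VE, 0.124 for N with VE+N and 0.0689 for VE with VE+N. A replicate block gave 3901 calls, 679 over 2-fold, 251 shared genes and 2055 calls of VE+N minus VE, with Cdh5 at −0.25 and Cdh2 at −1.39.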
